A study of Mus musculus with 7 samples.

Results

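The Hox genes of the 4 mouse clusters were described on 7 single-channel Affymetrix arrays of hematopoietic stem cells (HSCs), the rare marrow cells that renew themselves and give rise to all blood lineages. A gene was included when the platform annotation gave at least 1 probe set that named it alone, under a symbol Hoxa, Hoxb, Hoxc or Hoxd followed only by a number. This rule kept 36 of the 39 Hox genes in the RefSeq table, out of 22180 genes with such a probe set. The other 3 were not analysed here, and 7 further probe sets that named a Hox gene together with another gene were left out. For a gene with several probe sets, the one of highest mean log2(intensity + 1) over all arrays stands for it. Hoxb5 was the only member with 2 probe sets.

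The tested arrays came from Ahr knockout mice (Ahr-KO, n = 3) and the others from mice with wild-type Ahr (WT, n = 4), all on a C57BL/6J background and aged 8 weeks. Ahr encodes the aryl hydrocarbon receptor, a transcription factor switched on by aromatic ligands. The labels do not give the deleted part of the gene or say that its loss is limited to blood cells. Lineage-positive marrow cells had been removed before HSCs were taken by SLAM surface markers. RNA from these few cells was amplified into biotin-labelled cDNA. No label states that each array stands for a separate mouse, so the p-values rest on array-to-array spread that could be technical.

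Hox genes encode homeodomain transcription factors and lie in clusters, named A to D, on separate chromosomes. Paralogs at corresponding places in the clusters carry the same number, and low numbers act toward the head of the embryo and high numbers toward the tail. Hox proteins bind DNA with TALE cofactors of the Pbx and Meis families, and MLL-type complexes and Polycomb complexes keep the clusters active or silent. In mouse marrow, genes of the A cluster around Hoxa9 and of the B cluster around Hoxb4 are known for their use in stem and progenitor cells, with HoxC and HoxD genes used far less.

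The files give intensities without detection calls. As a background mark, the 95th percentile over 1108 olfactory receptor probe sets was taken on each array, and it lay between 33.8 and 42.8. The probe set of Ahr read 34.1, 137 and 26.4 on Ahr-KO arrays, against 31.3, 57.9, 14.9 and 20.5 on WT arrays. It was not lower on the Ahr-KO arrays. The probe set exceeded the mark on only 1 WT array, so a loss could hardly show, and its place relative to the deletion is unknown. It therefore does not check the labels. On WT replicate 2 the fewest genes exceeded the mark (30.1%, with 33.6 to 44.4% on the other arrays). The mark itself was also highest there, at 42.8. The 12 granulocyte and monocyte markers had their highest mean log2 intensity on WT replicate 2 (9.68), close to 9.62 on Ahr-KO replicate 2. The array farthest from the others on that list was WT replicate 1, at 4.51, with 6.84 the next lowest. The 9 measured HSC identity markers had their lowest mean on WT replicate 2 (5.87), but this rank rested on 1 marker listed at 0 there. Over the other 8 markers the mean was 6.52 on Ahr-KO replicate 1, the lowest array, and 6.61 on WT replicate 2, and Ahr-KO replicate 1 was also lowest in summed intensity of all 9 (1769, against 2206 on WT replicate 2). Several results that rest on WT replicate 2 are given with and without it. In these bulk samples, fewer cells that use a gene and less RNA per cell cannot be told apart.

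Hox genes above the mark on most arrays lay in the A, B and D clusters and not in the C cluster. Of the 36 genes, 11 exceeded the mark on at least 4 arrays, 13 on 1 to 3 arrays and 12 on none. The share with at least 4 arrays was 30.6% of Hox genes, beside 34.6% of all 22180 genes and 3.44% of 1105 olfactory receptor genes. Among all genes, 31.1% exceeded the mark on 1 to 3 arrays and 34.3% on none, and among olfactory receptor genes 10.7% and 85.9%. Hox genes as a set thus lay close to the shares of all genes. By cluster, 4 of 9 HoxA genes, 4 of 10 HoxB genes, 0 of 9 HoxC genes and 3 of 8 HoxD genes reached 4 arrays. By position, 1 of 7 anterior genes (paralogs 1 to 3), 7 of 14 central genes (paralogs 4 to 8) and 3 of 15 posterior genes (paralogs 9 to 13) did so. Only Hoxd3 and Hoxd8 exceeded the mark on all 7 arrays, beside 13.7% of all genes and 1.27% of olfactory receptor genes. Without WT replicate 2, 6 genes exceeded it on all remaining arrays, with Hoxa7, Hoxa9, Hoxa13 and Hoxb5 joining them.

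**Figure D1:**
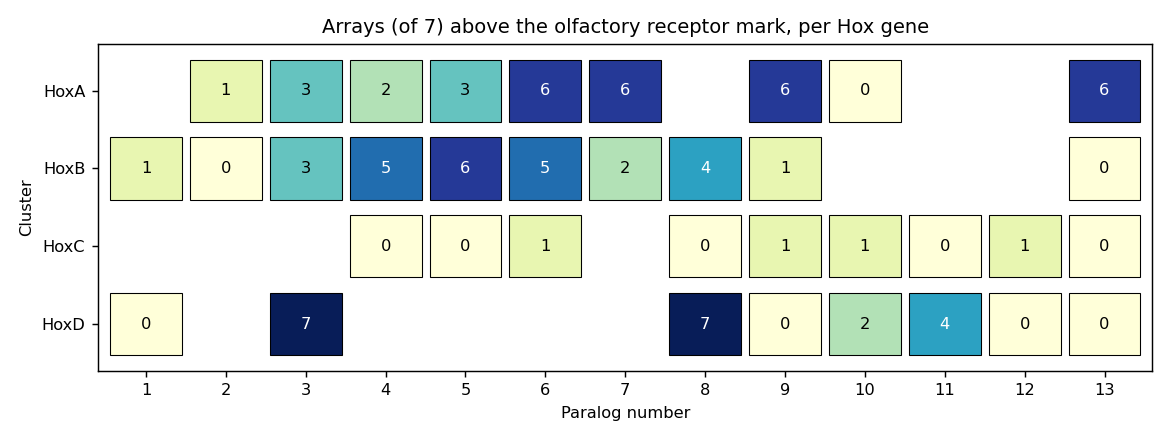
The grid places each measured Hox gene by cluster (rows) and paralog number (columns), and the number and shade give on how many of 7 arrays its intensity exceeded the olfactory receptor mark. Empty places are genes that do not exist or had no probe set of their own. Genes with 4 or more arrays are Hoxa6, Hoxa7, Hoxa9, Hoxa13, Hoxb4, Hoxb5, Hoxb6, Hoxb8, Hoxd3, Hoxd8 and Hoxd11, and no HoxC gene exceeds 1.

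Exceeding the mark does not by itself show a transcript. Of 14 measured homeobox genes outside the clusters that blood cells use little, 6 also exceeded it on at least 4 arrays. One of them, the eye and forebrain gene Six3, read 148, 169.8 and 169.9 on Ahr-KO arrays, against 149, 190.4, 126 and 109 on WT arrays; it is named here after its values were seen. Against a stricter mark, at the 99th percentile of the olfactory receptors (85.5 to 113), Hoxa7, Hoxa9 and Hoxb5 were the members above it on 4 arrays. Hoxb3 and Hoxb4 exceeded it on 3 arrays, Hoxb6, Hoxd3 and Hoxd8 on 2, and no member on more than 4. Six3 exceeded it on all 7 arrays and Evx1, also of the homeobox list, on 3, so the stricter mark did not remove such genes either. In total 23 Hox genes exceeded it on no array, all 9 HoxC genes among them.

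Hoxa9, needed in mouse for full HSC repopulating ability and a driver of leukaemia when overexpressed, had some of the brightest signals of the A cluster and varied widely within each genotype. It read 82.7, 699.9 and 591 on Ahr-KO arrays, against 56.9, 6.55, 385 and 678 on WT arrays. Both genotypes held high and low arrays and their ranges overlapped; WT replicate 2 gave the lowest value. The log2 difference, Ahr-KO minus WT, was 1.66 ± 1.58 (SE), with a 95% interval of -2.0 to 5.32 (limma adjusted p = 0.963; exact permutation p = 0.429, two-sided). Dropping Ahr-KO replicate 1 gave 2.64, dropping WT replicate 2 gave 0.40 and dropping WT replicate 4 gave 2.56.

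Hoxa7, a target of MLL fusion proteins in leukaemia, was steadier. It read 146, 204 and 185 on Ahr-KO arrays, against 61.4, 38.2, 98.6 and 151 on WT arrays. The highest WT array reached just above the lowest Ahr-KO array, so the ranges overlapped by that 1 array. The log2 difference was 1.19 ± 0.57 (SE), interval -0.12 to 2.50 (limma adjusted p = 0.963; exact permutation p = 0.0857), and dropping any 1 array gave 0.86 to 1.51.

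The other A-cluster genes above the mark on most arrays were closer to it. Hoxa6 read 56.2, 60.8 and 124 on Ahr-KO arrays, against 51.9, 101.7, 22.7 and 62.1 on WT arrays, a log2 difference of 0.51 ± 0.62 (SE), or 0.16 without Ahr-KO replicate 3 and 0.12 without WT replicate 3. Hoxa13, whose product patterns limb ends and the genital tract, read 163, 42.5 and 46.1 on Ahr-KO arrays, against 53.1, 41.4, 62.3 and 34.7 on WT arrays. Its one high value was Ahr-KO replicate 1; the log2 difference was 0.54 ± 0.59 (SE) and turned to -0.077 without that array. The 5 remaining A-cluster genes exceeded the mark on 3 arrays or fewer. Among them, named for a value seen in the data, Hoxa3, which acts in thymus and parathyroid formation, read 53.5, 1036 and 31.9 on Ahr-KO arrays, against 25.1, 44.3, 29.1 and 23.9 on WT arrays. Its log2 difference of 2.0 ± 1.12 (SE) was 0.46 without Ahr-KO replicate 2, the array that held the high value.

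All 9 HoxA genes had a positive difference between Ahr-KO and WT, beside 48.4% of all genes, and their median was 0.74, beside -0.03 over all genes. None of the 9 passed the test: the lowest unadjusted p was 0.0696, for Hoxa7, and all 9 intervals included 0. With any 1 array dropped, 7 to 9 of the 9 were positive. Without WT replicate 2, 8 were positive and the median was 0.52. Quantile normalization and array weights each left all 9 positive. Median centring did so too, but it moves the difference of every gene by the same amount. Here that was upward (Hoxa10 from 0.74 to 0.81), so it could not lower the count. Median log2 intensity of the 9 genes was 5.84, 5.87 and 5.56 on Ahr-KO arrays, against 5.72, 4.11, 4.56 and 5.16 on WT arrays, so 1 WT array lay within the Ahr-KO range. The 9 genes share a locus and arrays, and their number of positive values is a description without a test. All 12 granulocyte and monocyte markers were higher in Ahr-KO too by mean log2 intensity, where WT replicate 1 was the lowest array (4.51). Their summed intensities were 7054 to 18386 on Ahr-KO arrays and 1151 to 19677 on WT arrays, and none was listed at 0. By mean intensity without the log, S100a9, Lcn2, Ngp and Camp were lower in Ahr-KO and the rest higher. By mean log2 intensity, 5 of 6 mast cell and basophil markers and 6 of 8 T and NK markers were also higher in Ahr-KO. Mixed lists were erythroid (2 of 4 higher), megakaryocyte (2 of 5) and stroma and endothelium (3 of 8). The remaining lists moved mostly the opposite way. Of 7 macrophage and dendritic markers 6 were lower in Ahr-KO, with sums of 291 to 546 on Ahr-KO arrays and 599 to 961 on WT arrays that did not overlap. All 6 measured B lymphoid markers were lower, with sums of 232 to 3223 on Ahr-KO arrays and 173 to 4091 on WT arrays, and neither list held a value of 0. Of 9 HSC identity markers 7 were lower, with sums of 1769 to 2451 on Ahr-KO arrays and 2206 to 7279 on WT arrays. The 2 higher were Slamf1, by 2.58 on the log2 scale (limma unadjusted p = 0.0288, adjusted p = 0.963), and Mecom, by 1.30. The part of these markers in the HoxA values was not tested.

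The B cluster held the widest swings. Hoxb6, which expands immature myeloid cells when overexpressed in mouse marrow, read 2.03, 76.3 and 86.7 on Ahr-KO arrays, against 2.28, 19583, 92.6 and 5364 on WT arrays. On WT replicate 2 it was the brightest of all 41155 rows of the table, and on WT replicate 4 it ranked 40; on Ahr-KO replicate 1 and WT replicate 1 it lay far below the mark. Its residual SD within genotype, 4.76 on the log2 scale, was the second largest of the 25335 probe sets tested, whose 1-per-gene median was 0.93. The log2 difference was -3.95 ± 2.92 (SE), interval -10.7 to 2.80 (limma adjusted p = 0.963; exact permutation p = 0.257). Dropping Ahr-KO replicate 1 gave -2.36 and dropping WT replicate 2 gave -2.11. Without WT replicate 1 it was -6.29, the groups no longer overlapped and the unadjusted p was under 0.05.

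Hoxb5, whose activity marks long-term HSCs in mouse marrow, read 58.5, 129 and 84.5 on Ahr-KO arrays, against 276, 0.31, 153 and 272 on WT arrays. The WT arrays held both the 3 highest values and the lowest, on WT replicate 2. On the log2 scale the genotypes differed by 0.48 ± 1.82 (SE; limma adjusted p = 0.987), a value that turned to -1.38 without WT replicate 2, where the groups no longer overlapped. The dimmer probe set of Hoxb5 read 4.74, 254 and 36.5 on Ahr-KO arrays, against 2.89, 66.3, 20.8 and 15.96 on WT arrays. It did not follow the first probe set across arrays, and it was above the mark on 2 arrays.

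Hoxb4, which expands HSCs when overexpressed in mouse, read 2.74, 178 and 85.1 on Ahr-KO arrays, against 115, 37.2, 214 and 57.9 on WT arrays. Its lowest value was on Ahr-KO replicate 1, and the log2 difference of -1.16 ± 1.31 (SE) turned to 0.52 without that array (limma adjusted p = 0.964 with it). Hoxb3, singled out after its values were seen, read 0.74, 119 and 0 on Ahr-KO arrays, against 1.83, 317, 120.4 and 6.86 on WT arrays. On WT replicate 2 Hoxb6 and Hoxb3 had their highest values and Hoxb5 its lowest, and on Ahr-KO replicate 1 Hoxb3, Hoxb4 and Hoxb6 all lay near 0.

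Hoxb8 and Hoxb1 were the B-cluster genes whose genotypes did not overlap. Hoxb8, which immortalises myeloid progenitors when overexpressed, read 38.6, 70.6 and 58.1 on Ahr-KO arrays, against 25.4, 29.1, 19.9 and 35.8 on WT arrays. Every Ahr-KO array lay above every WT array and above the mark, with 1 of the 4 WT arrays above the mark. The log2 difference was 0.98 ± 0.45 (SE), interval -0.07 to 2.03 (limma adjusted p = 0.963); the exact permutation p was 0.0286, the smallest that 35 splits allow, and was not adjusted for the 36 genes. The difference ran from 0.79 to 1.22 without single arrays.

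Hoxb1, which sets hindbrain segment identity in the embryo, read 5.38, 11.3 and 6.22 on Ahr-KO arrays, against 14.9, 54.6, 12.8 and 19.2 on WT arrays. All Ahr-KO values lay below all WT values, but only WT replicate 2 exceeded the mark, so all other readings lay at or below it. The log2 difference was -1.43 ± 0.61 (SE), interval -2.84 to -0.01 (limma unadjusted p = 0.0483, adjusted p = 0.963; exact permutation p = 0.0571). It was -0.99 without WT replicate 2. With 1 array dropped, the unadjusted p stayed under 0.05 only without Ahr-KO replicate 2 or WT replicate 3, and missed it without each of the other 5.

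**Figure D2:**
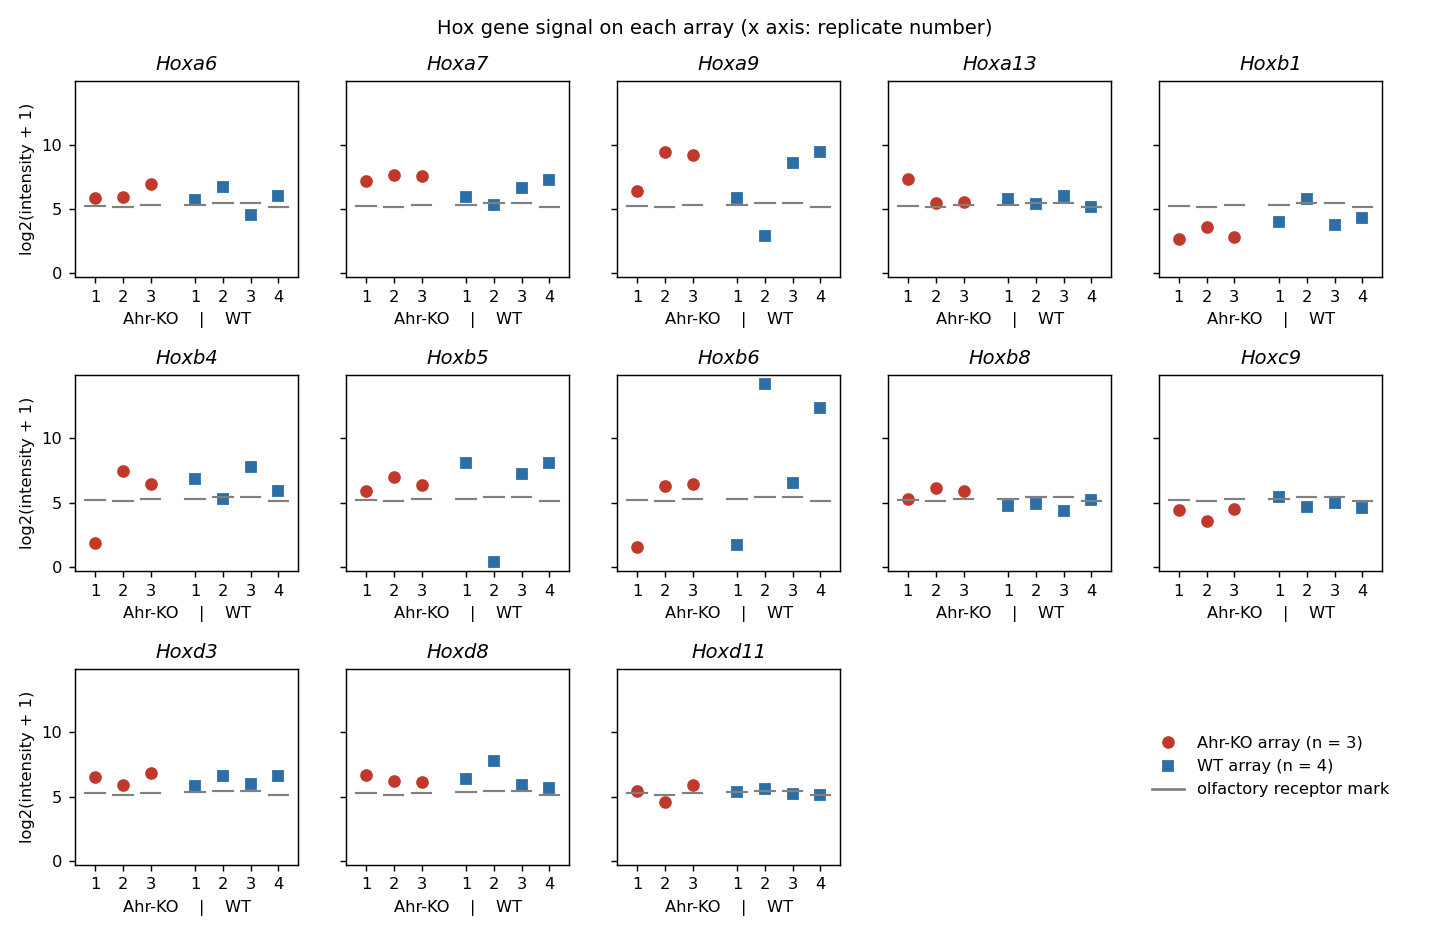
Each panel shows 1 Hox gene that exceeded the mark on at least 4 arrays or whose genotypes did not overlap, as log2(intensity + 1) on each array by replicate number, with Ahr-KO as red circles, WT as blue squares and the olfactory receptor mark of that array as a grey line. Hoxb6 spans from 2.03 to 19583 in intensity, Hoxb5 and Hoxa9 drop on WT replicate 2, and Hoxb8 is the gene with all Ahr-KO arrays above all WT arrays.

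Among the B-cluster genes, promoter sequence was available for Hoxb4, Hoxb8 and Hoxb1 alone, so Hoxb3, Hoxb5 and Hoxb6 could not be read for motifs. Hoxb4 is shown for its match to the AhR core motif. The other genes are shown because their groups were separated. Each run covers 250 bases before to 50 after a gene's start, 5′ to 3′, from RefSeq on GRCm38.p6, plus strand. The windows are chr11:96318017-96318316 for Hoxb4, chr11:96281655-96281954 for Hoxb8 and chr11:96365508-96365807 for Hoxb1. Capitals mark GCGTG, the core of the AhR binding motif, in Hoxb4, and TGATNNAT, a composite Pbx-Hox motif, in Hoxb8 and Hoxb1, on either strand.
Hoxb4: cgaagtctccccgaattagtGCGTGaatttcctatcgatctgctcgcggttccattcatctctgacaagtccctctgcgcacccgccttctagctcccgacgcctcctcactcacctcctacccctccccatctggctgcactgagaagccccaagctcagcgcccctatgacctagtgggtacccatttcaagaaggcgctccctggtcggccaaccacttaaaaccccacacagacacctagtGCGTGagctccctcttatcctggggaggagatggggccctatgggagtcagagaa
Hoxb8: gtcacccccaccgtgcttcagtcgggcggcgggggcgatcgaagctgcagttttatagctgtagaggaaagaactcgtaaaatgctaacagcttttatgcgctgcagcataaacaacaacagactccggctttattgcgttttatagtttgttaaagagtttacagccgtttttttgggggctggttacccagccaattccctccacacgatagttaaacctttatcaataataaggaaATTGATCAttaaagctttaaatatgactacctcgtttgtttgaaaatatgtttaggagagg
Hoxb1: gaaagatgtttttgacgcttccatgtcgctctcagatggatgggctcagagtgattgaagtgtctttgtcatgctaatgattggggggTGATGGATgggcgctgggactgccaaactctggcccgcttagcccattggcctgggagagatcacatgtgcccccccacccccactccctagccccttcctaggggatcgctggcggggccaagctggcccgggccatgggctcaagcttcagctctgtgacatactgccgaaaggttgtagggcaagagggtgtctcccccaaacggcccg

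The Hoxb4 window holds 2 GCGTG matches and no TGATNNAT, and the Hoxb8 and Hoxb1 windows hold 1 TGATNNAT each and no GCGTG. The RefSeq table had 22 promoters for 20 of the 36 Hox genes. GCGTG, which contains a CpG, occurred in 9 of these 22 (40.9%), beside 32.4% of all 32851 promoters. The Hox promoters were richer in CpG, with a median of 17 per window, beside 7 over all promoters. TGATNNAT occurred in 4 of the 22 (18.2%), beside 8.85% of all promoters. The motifs can overlap by the letters TG, and a match is a run of letters and not a measured binding site.

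The C cluster stayed near background: 5 of its 9 genes exceeded the mark on no array and the other 4 on 1 array each. Hoxc9, which sets motor neuron identity at thoracic level, was the C-cluster gene with separated groups. It read 20.8, 11.2 and 21.8 on Ahr-KO arrays, against 42.97, 24.9, 30.9 and 23.2 on WT arrays. Only WT replicate 1 exceeded the mark. Ahr-KO minus WT was, on the log2 scale, -0.75 ± 0.47 (SE, limma adjusted p = 0.963; exact permutation p = 0.0571), or -0.46 without Ahr-KO replicate 2 and -0.58 without WT replicate 1. Differences of the 9 HoxC genes ran from -1.0 to 0.48.

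In the D cluster 3 genes exceeded the mark on at least 4 arrays. Hoxd3, which shapes the neck vertebrae, read 89.8, 59.5 and 112 on Ahr-KO arrays, against 57.04, 98.2, 62.6 and 95.2 on WT arrays. Its log2 difference was 0.14 ± 0.47 (SE), interval -0.94 to 1.23. Hoxd8 read 104, 73.2 and 69.6 on Ahr-KO arrays, against 80.2, 217, 57.6 and 48.8 on WT arrays, a log2 difference of -0.05 ± 0.61 (SE). Its highest value was on WT replicate 2, without which the difference was 0.40. Hoxd11, a forearm and kidney patterning gene, read 41.6, 23.2 and 59.6 on Ahr-KO arrays, against 39.9, 46.4, 35.1 and 33.1 on WT arrays, a log2 difference of 0.02 ± 0.48 (SE). The genotypes overlapped in all 3 genes, and apart from Hoxd8 on WT replicate 2 no value exceeded the highest of Six3.

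By array, the number of Hox genes above the mark was 12, 14 and 15 of 36 on Ahr-KO arrays, against 12, 8, 10 and 13 on WT arrays. The share of all genes above it was 34.7, 41.6 and 36% on Ahr-KO arrays, against 35.8, 30.1, 33.6 and 44.4% on WT arrays. WT replicate 2 was lowest in both counts. Of the 9 HoxA genes, 6, 7 and 5 exceeded the mark on Ahr-KO arrays, against 5, 2, 3 and 5 on WT arrays, and of the 10 HoxB genes 2, 5 and 5 did so on Ahr-KO arrays, against 3, 3, 4 and 5 on WT arrays. HSC identity markers averaged 6.44, 7.45 and 7.14 on the log2 scale on Ahr-KO arrays, against 7.13, 5.87, 8.09 and 7.96 on WT arrays. Granulocyte and monocyte markers averaged 8.07, 9.62 and 7.09 on Ahr-KO arrays, against 4.51, 9.68, 7.81 and 6.84 on WT arrays. Their part in the Hox counts was not tested.

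**Figure D3:**
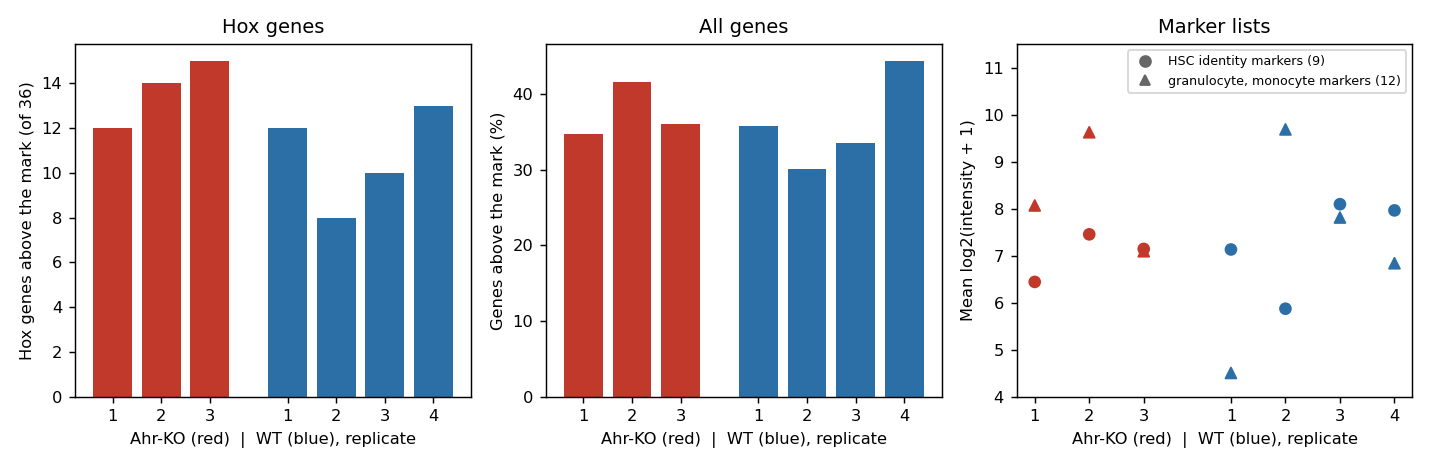
Bars give, for each array by replicate number, how many of 36 Hox genes (left) and what percentage of all genes (middle) exceeded the olfactory receptor mark, and points (right) give the mean log2(intensity + 1) of HSC identity markers (circles) and granulocyte and monocyte markers (triangles), with Ahr-KO in red and WT in blue. WT replicate 2 has the fewest Hox genes, 8, and the lowest share of all genes, 30.1%. Its granulocyte and monocyte mean of 9.68 is the highest, beside 9.62 on Ahr-KO replicate 2. Its HSC marker mean of 5.87 includes 1 marker listed at 0.

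Whether loss of Ahr changed Hox transcripts was asked with limma on log2(intensity + 1) across 25335 probe sets. No probe set passed an adjusted p of 0.05 (0 called, 0%), and 1067 (4.21%) had an unadjusted p under 0.05. The adjusted p of the 36 Hox genes ran from 0.963 to 0.998. At an unadjusted p under 0.05 there was 1 Hox gene, Hoxb1, in the lower direction, beside 4.02% of all genes in either direction, 1.98% higher and 2.04% lower. Genotypes did not overlap for 3 Hox genes, Hoxb8 higher and Hoxb1 and Hoxc9 lower, beside 5.78% of all genes, 2.62% higher and 3.15% lower. Dropping an array cannot make separated groups overlap, so these 3 genes had to stay in every count below, and other genes could only join. The count was 3 with WT replicate 3 dropped, 4 with WT replicate 4 dropped, 5 with Ahr-KO replicate 1 or replicate 3 dropped, 6 with Ahr-KO replicate 2 or WT replicate 1 dropped, and 7 with WT replicate 2 dropped. Fewer arrays separate more easily. The share of all genes was not taken with arrays dropped, so 5.78% is no measure for these counts. After quantile normalization or median centring the count was 4: Hoxc9 then overlapped, and Hoxa7 and Hoxa10 were separated in the higher direction. Among the WT arrays alone, 2 Hox genes had 1 extreme array by Dixon's ratio, Hoxa5 and Hoxb5, beside 6.94% of all genes. Differences were positive for 21 Hox genes and negative for 15, with a median of 0.18, or -0.033 without Ahr-KO replicate 3. Of the 11 genes above the mark on at least 4 arrays, Hoxb8 met that condition with all Ahr-KO arrays and only WT replicate 4. A gene high in Ahr-KO can thus enter this set more easily, so its median is a description without a test. The median over the 11 genes was 0.48, beside 0.04 over all genes that met the condition. Dropping Ahr-KO replicate 3 gave 0.16, dropping WT replicate 3 gave 0.12, and array weights gave 0.11.

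The precision was low. The median SE of a Hox gene was 0.65 on the log2 scale, beside 0.69 over all genes, and the 95% intervals of 20 of the 36 Hox genes reached beyond both 1 and -1, so neither a doubling nor a halving was excluded for them. HoxB genes had the largest median residual SD within genotype, 1.49, with 1.16 for HoxA, 0.73 for HoxC and 0.68 for HoxD.

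**Figure D4:**
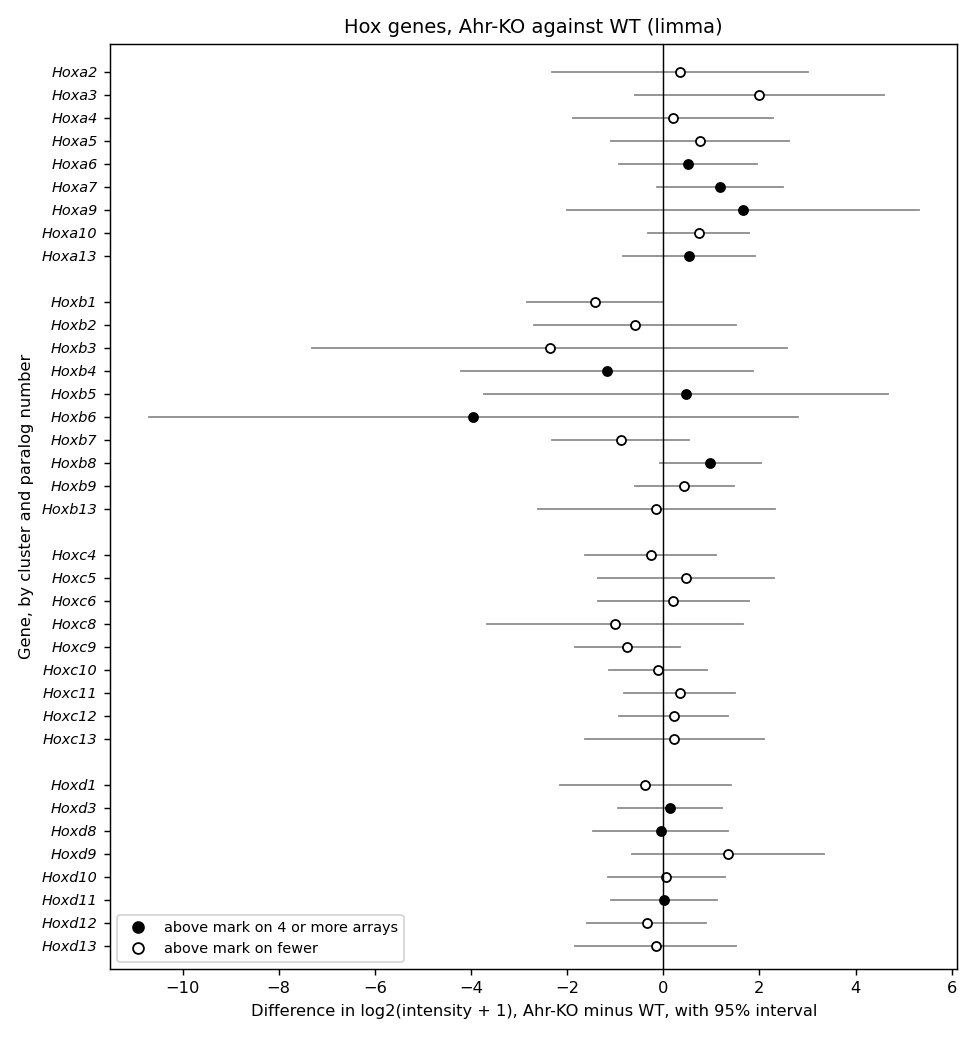
Points give the difference in log2(intensity + 1), Ahr-KO minus WT, for the 36 Hox genes by cluster and paralog number, with limma's 95% interval as a line, filled for genes above the mark on at least 4 arrays. All 9 HoxA points lie right of 0, only the interval of Hoxb1 leaves out 0, and Hoxb6 has the widest interval, -10.7 to 2.80.

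TALE cofactors, the DNA-binding partners of Hox proteins, were measured for 8 genes. Of these, 4 were higher and 4 lower in Ahr-KO, with a median difference of -0.02, and none passed the adjusted threshold. Meis1, the cofactor that HSC maintenance depends on, exceeded the mark on all arrays, at 198, 199 and 785 on Ahr-KO arrays, against 380.0, 521, 641 and 647 on WT arrays. Both lowest values were Ahr-KO arrays but the highest was too, and the genotypes differed by -0.77 ± 0.61 on the log2 scale (SE; limma adjusted p = 0.963). Pbx2 differed by 1.36 ± 0.72 (SE) and was above the mark on 5 arrays. Meis2, above the mark on none, read 5.90, 7.57 and 10.9 on Ahr-KO arrays, against 10.2, 29.3, 19.5 and 26.8 on WT arrays. It differed by -1.24 ± 0.52 (SE; limma unadjusted p = 0.0453, adjusted p = 0.963), and the groups overlapped. Pknox1, above the mark on 1 array, differed by -1.46 ± 1.40 (SE).

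Regulators of the clusters gave no gene past the adjusted threshold either. Of 20 activators, which include the MLL complex and Cdx factors, 9 were higher and 11 lower, with a median of -0.05. Mllt1, of the super elongation complex, differed by 1.80 ± 0.92 (SE) and Men1, the menin adaptor of MLL, by -1.40 ± 1.07 (SE). The caudal factors Cdx2 and Cdx4 differed by 0.71 and 0.77 and exceeded the mark on 1 array and on none. Of 11 Polycomb and H3K27 demethylase genes, 8 were higher, with a median of 0.32. Ezh1, a histone methyltransferase of Polycomb complexes, read 90.4, 78.0 and 83.4 on Ahr-KO arrays, against 34.0, 54.1, 27.9 and 49.7 on WT arrays. Its genotypes did not overlap, with a log2 difference of 1.05 ± 0.44 (SE; limma unadjusted p = 0.0462, adjusted p = 0.963). Among all genes, 2.62% were separated in the higher direction. Ring1, a ubiquitin ligase subunit, differed by -2.11 ± 0.93 (SE), Kdm6a by -1.37 and Suz12 by 1.05.

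The clusters also hold microRNA genes, and 4 of the 6 listed had a probe set of their own. Their mature sequences, from RefSeq on GRCm38.p6, are shown because miR-196 lies beside the paralog 9 genes, and targets Hox messages including that of Hoxb8, and miR-10 lies beside the paralog 4 genes. The mature forms lie at chr11:96265187-96265208 and chr15:102973365-102973386 (plus strand) for miR-196a-5p, chr6:52230129-52230150 (minus) for miR-196b-5p, chr11:96317186-96317208 (plus) for miR-10a-5p and chr2:74726074-74726096 (plus) for miR-10b-5p. Capitals mark the seed, bases 2 to 8.
mmu-miR-196a-5p: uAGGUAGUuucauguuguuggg
mmu-miR-196b-5p: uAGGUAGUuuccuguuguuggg
mmu-miR-10a-5p: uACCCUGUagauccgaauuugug
mmu-miR-10b-5p: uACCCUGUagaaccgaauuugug

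The miR-196 pair shared the seed AGGUAGU and the miR-10 pair ACCCUGU. Mir196a-1, in the B cluster on the far side of Hoxb9 from Hoxb8, read 62.5, 43.5 and 77.7 on Ahr-KO arrays, against 73.2, 93.3, 60.1 and 35.4 on WT arrays, above the mark on all 7. Its log2 difference was -0.05 ± 0.50 (SE), within the spread of the arrays. Mir196a-2 and Mir10b exceeded the mark on no array and Mir615 on 1, with differences of 0.17, 0.73 and 0.19. Whether the probes read the mature form, its hairpin or longer RNA of the cluster is not stated.

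Genes known as targets of Hoxa9 and Meis1 were mostly bright, with 12 of 14 above the mark on at least 4 arrays, 8 higher and 6 lower, a median difference of 0.12 and none past the adjusted threshold. Lmo2, an adaptor of the stem cell transcription factor complex, read 404, 459 and 654 on Ahr-KO arrays, against 284, 112, 92.3 and 205 on WT arrays, a log2 difference of 1.65 ± 0.54 (SE; limma unadjusted p = 0.0163, adjusted p = 0.963). Id2, an inhibitor of basic helix-loop-helix factors, read 63.4, 178 and 182 on Ahr-KO arrays, against 0.01, 9.69, 62.7 and 15.7 on WT arrays, a log2 difference of 3.63 ± 1.28 (SE; limma unadjusted p = 0.0223, adjusted p = 0.963). In both genes every Ahr-KO array lay above every WT array, as in 2.62% of all genes. They are named for their small p among the 14, and 4.02% of all genes had an unadjusted limma p under 0.05. Cdk6, a cell cycle kinase, read 95.5, 184 and 65.9 on Ahr-KO arrays, against 312, 149, 415 and 355 on WT arrays. It differed by -1.44 ± 0.57 (SE; limma unadjusted p = 0.0364, adjusted p = 0.963), with the groups overlapping by 1 array, and Sox4 differed by -0.58.

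Protein-coding neighbours outside the clusters, 2 on each side, were measured for 15 of 16 genes. Of these, 4 were higher and 11 lower in Ahr-KO, with a median of -0.25, beside -0.03 over all genes. Around the A cluster, where every Hox gene had a positive difference, Snx10 differed by 1.39, Skap2 by -0.79, Evx1 by -0.88 and Hibadh by -1.25. Evx1, an even-skipped-type homeobox gene next to Hoxa13, read 50.03, 51.8 and 58.5 on Ahr-KO arrays, against 104, 65.8, 132 and 106 on WT arrays. Its groups did not overlap (limma unadjusted p = 0.0807, adjusted p = 0.963), beside 3.15% of all genes separated in the lower direction.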

How the data were processed

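Per the labels' protocols, RNA of sorted HSCs was amplified and biotin-labelled with a Nugen kit. The deposited table holds 1 linear intensity per probe set and array; the submitters' processing notes name Affymetrix Expression Console, and how it summarized, background-corrected and normalized the probes is not stated in what was used here. The table has 41155 rows: 23521 with 1 annotated gene symbol, 1814 with several and 15820 unnamed here.

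Differences in log2(intensity + 1) were fitted with limma 3.58.1 (R 4.3.3) with genotype alone as a term, from all 7 arrays and over the 25335 annotated probe sets, with two-sided Benjamini-Hochberg adjusted p-values. Background shares were taken over 22180 genes with 1 probe set each. Exact permutation tests used all 35 splits. The procedure was tested on simulated data. The number of arrays limits the precision.

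Values on every array are given for Hoxa9, Hoxb5, genes above the mark on at least 4 arrays, and genes with an unadjusted p under 0.05 or separated groups. Up to 4 genes of smallest p were named per other list, and Meis1 for its level; others were named after their values were seen. The members and lists were chosen with earlier results of these data known. Alternatives were single arrays left out, a replicate block, quantile normalization, median centring, a pseudocount of 16, a filter on dim probe sets, other variance priors, array weights, all rows, the mean of a gene's probe sets and a stricter mark.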

Additional observations from a re-analysis of the deposited data

Results flagged for a closer look

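Among the 4 WT arrays, the gap between the most extreme value and its nearest neighbour, as a share of the group's range of log2 values, exceeded Dixon's 95% critical value in 2 of 36 Hox genes, where chance gives about 1 in 20 groups and 6.94% of all genes did so. In Hoxb5 this share was 0.890 for the lowest array, WT replicate 2 (0.31, with 153 to 276 on the other WT arrays). In Hoxa5, which acts in lung and skeletal patterning, it was 0.862 for the highest array, WT replicate 1 (91.4, with 16.3 to 20.8 on the others).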

How the results depend on the processing

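No probe set passed the adjusted threshold by limma under any of the 15 other fits, replicate block included, with 495 to 1781 at an unadjusted p under 0.05. The count of Hox genes under 0.05 unadjusted, 1 with all arrays, was 1 to 2 without single arrays, 2 with a pseudocount of 16, and 0 with the replicate block, quantile normalization, array weights or dim probe sets left out. The genes differed: without Ahr-KO replicates 1, 2 and 3 in turn they were Hoxb8, Hoxb1 and Hoxa3, and without WT replicates 1 to 4 in turn they were Hoxb6 with Hoxd9, Hoxb5, Hoxb1 and Hoxa7; with the pseudocount of 16 they were Hoxa7 and Hoxb8. Non-overlapping Hox genes numbered 3 to 7 without single arrays, where the count could not fall and the share of all genes was not taken. It was 1 with dim probe sets left out, a filter that tests fewer genes. Hox genes above the mark on every array were 2 to 6 without single arrays and 0 with the 99th percentile, which left 23 above it on no array. The median Hox difference was -0.033 to 0.28 without single arrays and 0.50 with dim probe sets left out. Over the genes above the mark on at least 4 arrays it was 0.12 to 0.52 without single arrays, 0.12 with a pseudocount of 16 and 0.11 with array weights. With the 99th percentile 3 genes met the condition, Hoxa7, Hoxa9 and Hoxb5, and the median was 1.19, the value of Hoxa7. Hoxa7 met it with 146, 204 and 185 on Ahr-KO arrays and 151 on WT replicate 4. The larger median thus rests on a gene chosen largely through its Ahr-KO values and is no support for a difference. For the HoxA genes, alternatives chosen after seeing the data gave 7 to 9 positive and medians of 0.52 to 1.02. Of 18 single genes refitted, 6 turned sign. Without single arrays Hoxa13 ran from -0.077 to 0.88, Hoxb4 from -2.27 to 0.52, Hoxb5 from -1.38 to 1.19, Hoxd3 from -0.057 to 0.39, Hoxd8 from -0.31 to 0.40 and Hoxd11 from -0.29 to 0.37. Hoxb5 was -0.26 with a pseudocount of 16 and -0.14 with array weights; Hoxd8 was 0.021 after median centring and 0.10 with array weights; Hoxd11 was -0.054 with the replicate block and -0.020 with array weights. The cause was not tested, and all 6 of these genes exceeded the mark on at least 4 arrays. Apart from them, signal over background limits 25 of the 36 genes, which exceeded the mark on fewer than 4 arrays. The labels share replicate numbers between genotypes without stating a pairing, and same-numbered arrays did not deviate together (correlations 0.023, -0.065 and 0.010). The replicate block gave 1120 probe sets under an unadjusted p of 0.05 and 0 adjusted; WT replicate 4 has no partner, so that fit takes nothing from it.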
